A study of Mus musculus with 12 samples.

Results

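The comparison set the late phase after stroke against the early phase in cells of the mouse cerebral cortex labelled astrocytes, as 8 of the 12 libraries of the study. The 4 early libraries were taken at days 1 and 3 and the 4 late libraries at days 21 and 60, with 2 libraries at each day. The choice rests on the day in the labels alone, and every gene in the files was kept for the test, 15774 in all, of which 14845 passed the filter on low counts. All animals were wild-type C57BL/6J. In the stroke groups the distal middle cerebral artery was tied off for good and both common carotid arteries were then closed for 7 min, whereas sham animals received only a skull surface lesion. Astrocytes were collected by fluorescence-activated cell sorting and their total RNA was sequenced. The labels do not name the sort marker, do not give ages, do not say when sham cells were taken, and do not say whether a library is 1 animal or a pool, so p-values measure only the spread between these samples, which may be technical. Sham and day 7 (2 libraries each) are given beside the results as levels and entered no test of late against early.

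Astrocytes clear glutamate and potassium, supply lipids to neurons and wrap their end-feet around vessels. After ischaemia they become reactive: intermediate filament proteins accumulate, cytokines and acute phase proteins are secreted, some cells divide, and a glial border later forms around the lesion. Stromal cells of the meninges and vessels build a fibrotic scar beside that border, and microglia and blood-borne macrophages take up debris.

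Values are given in a fixed order: early as day 1 replicate 1, day 1 replicate 2, day 3 replicate 1 and day 3 replicate 2, and late as day 21 replicate 1, day 21 replicate 2, day 60 replicate 1 and day 60 replicate 2. Sham and day 7 values are replicate 1, then replicate 2. Levels are CPM, gene counts normalised to the library total scaled with trimmed-mean (TMM) factors. Differences are log2 fold changes, late minus early, ± standard error, and a gene was called at a Benjamini-Hochberg adjusted p under 0.05 in edgeR's quasi-likelihood F test. CPM is not divided by gene length, so levels are compared within a gene only.

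Replicate 1 libraries held 13006008 to 16575045 counts and replicate 2 libraries 97056596 to 156128922, so depth and replicate number cannot be told apart. On the first principal component of the 8 libraries, which took 33.9% of the variance, the early libraries scored -135.1, -50.5, -85.5 and 2.66 and the late libraries 44.8, 83.1, 51.3 and 89.2, with no overlap. The second component (25.8%) placed replicate 1 above replicate 2 at each of the 4 days. The third (16.4%) placed both day 1 libraries (-60.8 and -60.7) apart from both day 3 libraries (100.8 and 62.8). On it the late libraries scored between -32.0 and 5.29.

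**Figure D1:**
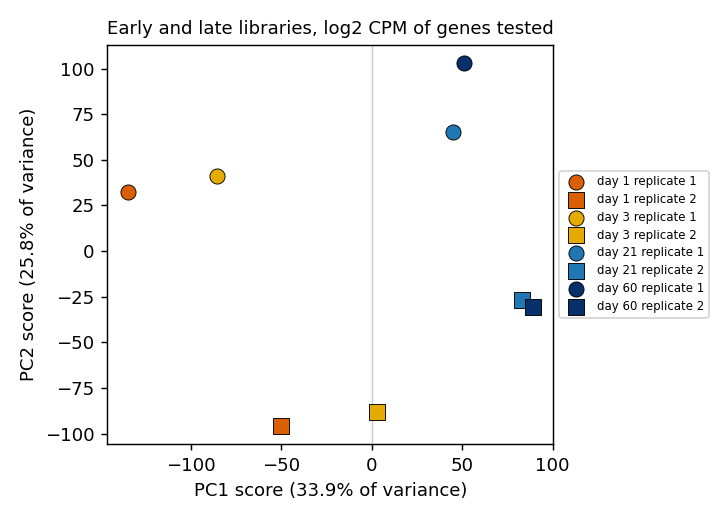
Scores of the 8 libraries on the first component (x axis, 33.9% of the variance) and the second (y axis, 25.8%) of log2 CPM, with colour for the day, circles for replicate 1 and squares for replicate 2. All 4 late libraries lie to the right of all 4 early ones, and at each day the square lies below the circle.

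Late against early, 1249 genes were called (8.41% of those tested). Of these, 706 genes were higher (4.76%) and 543 lower (3.66%), and the median difference of all genes tested was -0.05. Over all genes tested the difference was positive in 7076 and negative in 7769. Each list count below stands against these shares. The size of the called differences ran from 0.81 to 14.16 on the log2 scale, with a median of 1.95. For 698 of the higher and 486 of the lower genes, all 4 libraries of one phase lay outside the range of the other. Over all genes tested, 10.4% had every late library above every early one and 7.82% had every late library below. With the replicate number as a block the counts were 1077 higher (7.25%) and 885 lower (5.96%), and 1246 of the 1249 genes called without the block were among them. With single libraries left out the calls numbered 414 for day 21 replicate 1, 464 for day 21 replicate 2, 731 for day 60 replicate 1 and 434 for day 60 replicate 2. Across all 8 such fits 347 genes (263 higher, 84 lower) kept their call. With a whole day left out the calls numbered 1021 for day 1, 1851 for day 3, 61 for day 21 and 35 for day 60. Of the 105 genes described below 79 were called, and 18, 2, 61 and 68 of these lost their call in those 4 fits. With day 21 or day 60 left out no gene list below had more than 3 members called higher or more than 1 called lower. limma voom kept 1123 of the 1249 calls and ended those of Lhx8, Pf4, Il11, Stc1, Car3, Serpinb2, Esm1, Fosl1, Lif, Inhba, Kif23, Fabp7 and Vegfa (adjusted p = 0.0682 to 0.301). Where DESeq2, or a fit of all 12 libraries that weights the 4 days equally (the mean of days), called a described gene that did not pass, its adjusted p stands beside the gene. Where leaving out a library ended the call of a named gene, that library stands beside it.

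**Figure D2:**
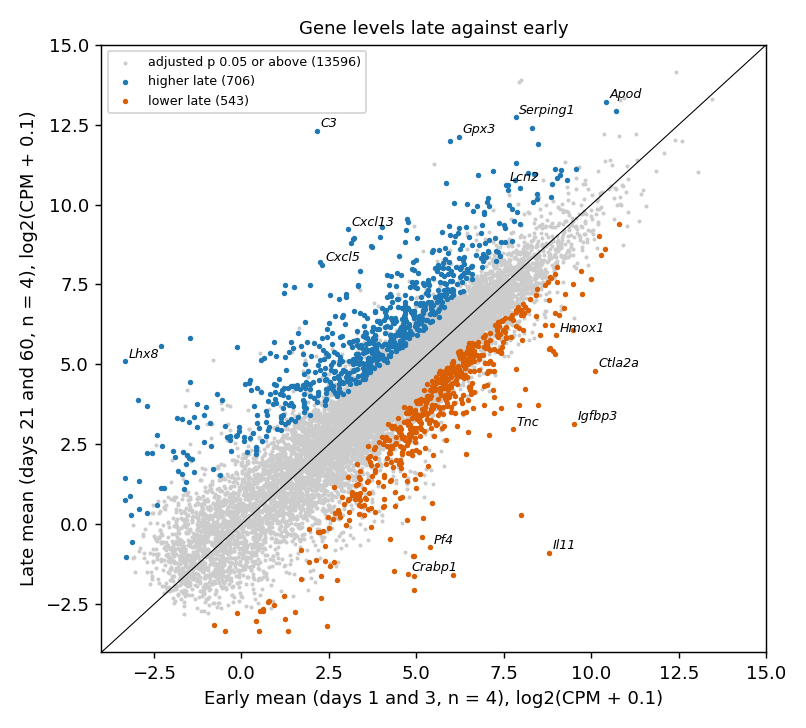
Mean late level (y axis, log2 of CPM + 0.1, n = 4) against mean early level (x axis, same scale, n = 4) for the 14845 genes tested, with the line of equality. Blue points mark the 706 genes higher late and orange points the 543 genes lower late. C3 lies farthest above the line among the labelled abundant genes and Il11 farthest below it.

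Several complement genes stood far above their early levels in the late libraries. C3, the central component on which all complement pathways converge, measured 0.334, 2.49, 12.3 and 2.32 CPM early and 3611, 6282, 3004 and 7265 CPM late (10.18 ± 1.20, adjusted p = 0.00366). Every late library exceeded the highest early one, and the levels in sham (0.538 and 0.462 CPM) and at day 7 (26 and 38.4 CPM) also lay below the late ones. C2, which supplies the protease of the classical pathway convertase, measured 2.56, 5.13, 14.1 and 30.1 CPM early and 366, 515, 280.1 and 518 CPM late (5.01 ± 0.75, adjusted p = 0.00661), again with no overlap between phases. The exons of C2 overlap those of another gene on the same strand and of a further gene on the opposite strand. C6, a component of the membrane attack complex, measured 0, 0.548, 3.35 and 4.95 CPM early and 109, 117, 146 and 228 CPM late (6.07 ± 1.09, adjusted p = 0.0117), and it was listed at 0 in both sham libraries. Serping1, the inhibitor of the C1 proteases, stood at 105, 107, 228 and 473 CPM early and 6869, 7502, 5675 and 7100.1 CPM late (4.89 ± 0.61, adjusted p = 0.00369). Its sham level was 19.5 and 18.4 CPM and its day 7 level 1093 and 1361 CPM, so the groups of this inhibitor were ordered sham, day 1, day 3, day 7, late.

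The list of 20 complement genes tested does not hold C6. Of these 20 genes 5 were called higher, among them C3, C2, Serping1 and C1ra, and 0 lower. Their median difference was 0.82, against 4.76% called higher and a median of -0.05 over all genes. The replicate block raised the count to 8 higher and 1 lower. C1qa, a chain of the initiating C1q made mainly by microglia in brain, did not pass (-0.74 ± 0.95, adjusted p = 0.665). The receptors C3ar1 (-1.69 ± 0.82, adjusted p = 0.22) and C5ar1 (-1.96 ± 0.55, adjusted p = 0.0526), found mainly on myeloid cells, did not pass either. C5ar1 passed with the block (adjusted p = 0.0457), by DESeq2 (0.00327), as the mean of days (0.0043) or with either day 1 library omitted (0.0438 for replicate 1, 0.028 for replicate 2). Omitting day 1 altogether, C5ar1 (0.00538) and C3ar1 (0.013) were lower late, and omitting day 3, C1qa was higher by 2.47 (0.0418). The summed share of complement transcripts was 0.0893, 0.199, 0.637 and 1.02% of counts early and 1.83, 6.0, 1.38 and 7.04% late, with the late values of replicate 2 several times those of replicate 1. The list's count was 4 higher and 2 lower (median 0.92) with day 1 omitted and 11 higher and 0 lower (median 2.35) with day 3 omitted.

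A split between replicates was seen in complement genes that have a close copy in the genome. C4b, the fourth complement component, measured 10.3, 339, 34.9 and 638 CPM early and 1166, 27211, 884 and 31807 CPM late, so replicate 2 exceeded replicate 1 by 12.5 to 36 times across the 6 groups. Its difference was 5.90 ± 1.64, adjusted p = 0.0524, and the block brought the adjusted p to 0.00152. It was 0.0468 without day 3 replicate 2, 0.0473 by limma voom, 0.04996 after thinning to the shallowest library and 9.35e-06 by DESeq2. Its neighbour and near-copy C4a stood at 0.056 and 0.344 CPM in the late libraries of replicate 1 and at 24172 and 34010.4 CPM in those of replicate 2. C1ra, a protease of the C1 complex, measured 7.67, 47.3, 14.9 and 177 CPM early and 489, 7312, 517 and 8078 CPM late (6.05 ± 1.38, adjusted p = 0.0281), and its call ended with day 1 replicate 2, day 3 replicate 1, day 21 replicate 2 or day 60 replicate 2 left out (adjusted p = 0.0578 to 0.0685). C1rb, its copy, was listed at 0 in both early libraries of replicate 1 and reached 5922 CPM in day 21 replicate 2. Outside complement, the signal recognition particle genes Srp54a and Srp54c showed the same split, with Srp54a at 0.616 CPM in replicate 1 and 2231 CPM in replicate 2 of day 21. These copies were chosen after their values were seen. Over all genes tested the median ratio of replicate 2 to replicate 1 was 0.938 to 1.04 in the 4 days, and 1.41% to 2.13% of genes differed by more than 10 times in that direction. How reads that match several genes were counted is not given in the sources used here, and its part in these values was not tested. In C3, C2, C6 and Serping1 the late values of both replicates were of the same order.

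The sequence just upstream of C3 is shown because C3 had the largest called difference among genes with a late mean over 100 CPM. It is the 250 bases before the start site listed by RefSeq on GRCm38.p6 (mm10), chr17:57228137-57228386, minus strand, outside the GENCODE span of the gene (chr17:57203970-57228136). Capitals mark matches on either strand to the letters GGGA or GGGG, then any 4 bases, then CC (an NF-kB-type pattern), which begin 197, 33 and 10 bases before the start, and to TTGCNNAA (a C/EBP-type pattern), 45 bases before it.
C3: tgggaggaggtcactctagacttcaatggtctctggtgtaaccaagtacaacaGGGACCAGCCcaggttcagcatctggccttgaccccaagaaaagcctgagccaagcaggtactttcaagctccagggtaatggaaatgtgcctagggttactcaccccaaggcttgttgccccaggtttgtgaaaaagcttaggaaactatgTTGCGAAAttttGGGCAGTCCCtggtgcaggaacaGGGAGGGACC
Within windows of this length the NF-kB-type letters occurred in 27.8% of all 27025 promoters and the C/EBP-type letters in 9.55%, and in 37.0% and 7.34% of the promoters of genes tested and not called. The NF-kB-type letters were in 41.2% of the promoters of genes called higher and 39.1% of those of genes called lower. Of the 505 genes called higher that have a promoter in the table, 10.5% held the C/EBP-type letters, and of 402 called lower 8.46% did. Among the 45 genes called higher that the naming rule picked, 13 did (28.9%), and among the 50 called lower, 8 did (16.0%). The following 30-base windows show a match to the C/EBP-type letters in 3 other genes called higher, on chr7:46732637-46732666 (minus strand), chr5:95956764-95956793 (plus strand) and chr5:7960374-7960403 (plus strand).
Saa4: accaggaaggaTTGAGCAAgagggactctg
Cxcl13: agattcataaaTTTTGCAAgacgaatttct
Steap4: cacagctcctcTTGCGAAAtcaagcgggcc
Saa4 has a further match 245 bases before its start, outside the window shown. A match says only that the letters are present.

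Some interferon-stimulated genes, which limit viral growth, rose late. All 30 genes of the list had a positive difference, against 7076 of the 14845 genes tested. Of the 30, 8 were called higher, against 4.76% of all genes, none was called lower, and the median was 1.05. The summed level was 0.276, 0.225, 0.245 and 0.194% of counts early and 0.375, 0.353, 0.479 and 0.426% late, with no overlap, against 0.0534 and 0.0498% in sham. Irf7, the transcription factor that amplifies type I interferon, measured 91.1, 67.6, 55 and 31.5 CPM early and 227, 313, 282 and 362 CPM late (2.27 ± 0.36, adjusted p = 0.00793). The GTPase Iigp1, which attacks the vacuoles of intracellular parasites, measured 41.4, 18.3, 23.1 and 19.1 CPM early and 136, 70.8, 136 and 116 CPM late (2.17 ± 0.36, adjusted p = 0.00875). Neither gene overlapped between phases, and both kept their call in all 8 fits that left out a library. Gbp2 (1.91 ± 0.38, adjusted p = 0.017) and Gbp3 (1.59 ± 0.31, adjusted p = 0.0168), guanylate-binding proteins, also rose, and both calls ended with day 21 replicate 2 or day 60 replicate 2 left out (adjusted p = 0.0508 to 0.0531). The list's count fell to 3 to 4 with day 21 replicate 2 or day 60 replicate 2 left out.

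Of 24 promoters found for the interferon list, called or not, 13 held the letters of an interferon-type element, GAAA, any 2 bases and GAAA, on either strand (54.2%). These letters were in 3.04% of all promoters of that length and 2.6% of those of genes tested and not called. They were in 4.75% of the promoters of all genes called higher and 3.23% of those of genes called lower. The list also held AP-1-type letters (TGANTCA) in 33.3% and STAT-type letters (TTCNNNGAA) in 25.0%, against 6.87% and 7.18% of all promoters. NF-kB-type letters were in 37.5% and C/EBP-type letters in 4.17%, against 27.8% and 9.55%. Gbp3 is shown because it was called and its match lies outside the GENCODE span of the gene. Its window is chr3:142559989-142560018, plus strand, and the match, read on the opposite strand, begins 45 bases before the start. A second match, which overlaps the first and is not in capitals beyond it, begins 39 bases before the start.
Gbp3: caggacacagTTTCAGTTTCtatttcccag

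Some genes of antigen presentation were also higher late. MHC class I molecules show peptides made inside the cell to CD8 T cells. All 14 class I genes had a positive difference and 5 were called higher, against 4.76% of all genes, with a median of 1.25. The block called 10. The count fell to 2 to 3 with day 1 replicate 2, day 3 replicate 1, either day 21 library or day 60 replicate 2 left out. H2-T23, a non-classical class I gene, measured 48.9, 52.4, 63.4 and 60 CPM early and 274, 294, 381 and 301 CPM late (2.48 ± 0.26, adjusted p = 0.00264). Tapbp, which loads peptide onto class I molecules, measured 397, 236, 385 and 279 CPM early and 1116, 1183, 1016 and 1014 CPM late (1.74 ± 0.31, adjusted p = 0.011). Its day 7 values of 1059 and 1015 CPM lay within the late range. The exons of Tapbp overlap those of another gene on the same strand.

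MHC class II genes, normally a feature of professional antigen-presenting cells, included 3 called higher of 12 (median 1.57), and 5 with the block. Cd74, the invariant chain that guards the class II groove, measured 53, 34.6, 245 and 94.9 CPM early and 584, 1015, 1133 and 1273 CPM late (3.23 ± 0.62, adjusted p = 0.0153), with no overlap. Day 3 against day 1, Cd74 did not pass (1.96, adjusted p = 0.0696). The count of class II calls was 1 with day 1 replicate 1, day 3 replicate 2 or any late library left out and 5 with day 3 replicate 1 left out. Microglial markers, whose cells can carry class II, summed to 0.0416, 0.0426, 0.478 and 0.389% of counts early and 0.22, 0.199, 0.108 and 0.0877% late. Their part in the class II values was not tested. Omitting day 1 left 2 higher and 0 lower (median 1.07) class II calls, and omitting day 3 left 8 higher and 0 lower (median 3.60).

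A further 5 genes that were higher late, Lcn2, Steap4, Cp, Saa4 and Gpx3, were set side by side after their values were seen. No list holds all 5, but Lcn2, Steap4 and Cp are in the shared set of reactive astrocyte genes given below. Lcn2, which binds bacterial iron carriers and is a common marker of reactive astrocytes, measured 284, 331, 45.3 and 90.7 CPM early and 1344, 2113, 1353 and 1498 CPM late (3.07 ± 0.61, adjusted p = 0.0176). At day 7 it was at 4.97 and 7.36 CPM, close to sham (4.3 and 5.51 CPM), so both phases lay above a low in between. Steap4, a metalloreductase, measured 23, 10.8, 13.5 and 17.1 CPM early and 1057, 549.9, 382 and 516 CPM late (5.28 ± 0.46, adjusted p = 0.00133). Cp, the copper-carrying ferroxidase ceruloplasmin, measured 243, 205, 200.4 and 512 CPM early and 1929, 2212, 1249.6 and 2728 CPM late (2.81 ± 0.45, adjusted p = 0.00788). Saa4, a constitutive serum amyloid A, measured 0, 0, 0.316 and 0.0913 CPM early and 23.8, 123, 6.64 and 37.3 CPM late (9.33 ± 1.39, adjusted p = 0.00661). Gpx3, the secreted glutathione peroxidase, measured 13.3, 11.3, 90.4 and 182 CPM early and 4673, 4121, 4980.4 and 4083 CPM late (5.91 ± 0.96, adjusted p = 0.00834). In none of these 5 genes did the phases overlap, and each kept its call in all 8 fits that left out a library.

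Among the 25 cytokines and chemokines tested the directions were mixed, with 4 called higher, 4 lower and a median of -0.51. Cxcl5, a neutrophil chemoattractant, measured 6.0, 3.33, 6.26 and 3.62 CPM early and 486, 358, 147 and 121 CPM late (5.86 ± 0.57, adjusted p = 0.00216). The B cell chemoattractant Cxcl13 measured 0.0556, 0.251, 17.6 and 14.4 CPM early and 358, 294, 1023 and 727 CPM late (6.22 ± 1.48, adjusted p = 0.0315), and its call ended with any late library left out (adjusted p = 0.0609 to 0.072). Both chemokines stood at or near 0 in sham, and all late libraries exceeded all early ones. Il11, an IL-6 family cytokine, went the other way, at 1005, 742, 14.2 and 2.27 CPM early and 0.672, 0.842, 0 and 0.239 CPM late (-9.92 ± 2.01, adjusted p = 0.0187). Nearly all of its early level came from day 1, and day 3 replicate 2 was within 3 CPM of the late libraries. The call of Il11 ended with any late library left out (adjusted p = 0.0518 to 0.0664). Its relative Lif measured 109.5, 23.8, 7.15 and 0.859 CPM early and 1.79, 0.528, 0.172 and 0.152 CPM late (-5.83 ± 1.44, adjusted p = 0.0358), a call that ended with either day 1 library or any late library left out (adjusted p = 0.052 to 0.105). Ccl2, the main monocyte chemoattractant, did not pass, with 407, 215, 66.5 and 31.3 CPM early and 94.1, 95.7, 57.2 and 41.2 CPM late (-1.32 ± 0.68, adjusted p = 0.251), but with day 3 omitted it was lower late (-2.11, adjusted p = 0.0136). Il6 did not pass either (-0.81 ± 0.59, adjusted p = 0.414). The count of cytokines called lower was 1 with any late library left out. Over the list, omitting day 1 gave 4 higher and 4 lower (median 0.10) and omitting day 3 gave 7 higher and 6 lower (median -0.25).

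**Figure D3:**
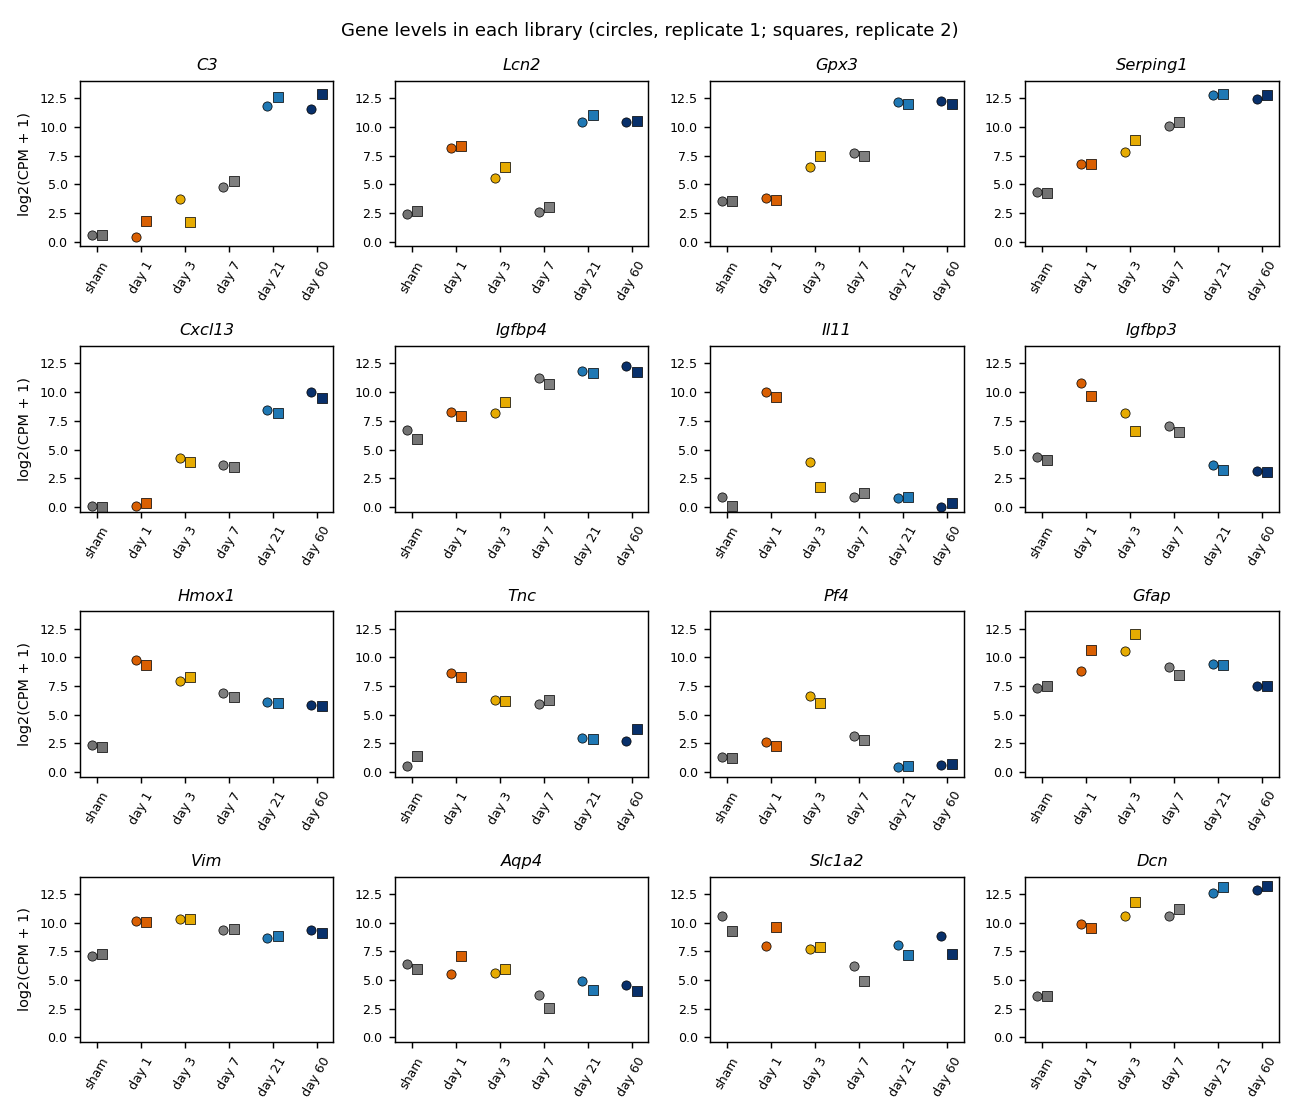
Levels of 16 genes in each of the 12 libraries, as log2(CPM + 1) on the y axis and group on the x axis, with circles for replicate 1 and squares for replicate 2. C3, Lcn2, Gpx3, Serping1, Cxcl13 and Igfbp4 stand highest in the 4 libraries of days 21 and 60, and Il11, Igfbp3, Hmox1 and Tnc stand highest at day 1.

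The transcription factor gene Lhx8, known for cholinergic neurons of the forebrain, had no count in any early library and measured 3.75, 3.77, 52.4 and 77 CPM late. Against a floor of 3 counts in each early library, its late mean was at least 332.6-fold higher. It was also detected in sham (0.538 and 0.317 CPM) and had no count at day 7. Day 60 exceeded day 21 in both replicates, although the difference between the late days did not pass (4.10, adjusted p = 0.101). Other genes near 0 early and present late were Adamdec1, a secreted metalloprotease (0, 0, 0 and 0.119 CPM early, 13.2, 11.3, 10.6 and 23.1 CPM late; 8.29 ± 1.04, adjusted p = 0.00369), and the sodium channel Scn7a (0, 0.0279, 0 and 0.183 CPM early, 13.1, 11.8, 11.5 and 15.7 CPM late; 7.42 ± 0.86, adjusted p = 0.00366). Epha3, a receptor for ephrin guidance cues, measured 0.50, 0.994, 0.379 and 7.23 CPM early and 196, 195, 95.3 and 226 CPM late (6.24 ± 0.99, adjusted p = 0.00778) and was already at 87.5 and 89 CPM on day 7. Car3, a carbonic anhydrase of fat and muscle, measured 0.167, 0.26, 0 and 0.621 CPM early and 1.12, 3.01, 111 and 112 CPM late (7.52 ± 1.58, adjusted p = 0.0217), with nearly all of the late level at day 60, and its call ended with day 1 replicate 2 or day 60 replicate 2 left out (adjusted p = 0.0506 to 0.0553). Hgd, an enzyme of tyrosine breakdown, was called (6.85 ± 1.40, adjusted p = 0.0189), and its call ended with day 21 replicate 1 or day 60 replicate 2 left out (adjusted p = 0.0508 to 0.0545). Slc36a2, a small amino acid transporter, was called (5.99 ± 1.28, adjusted p = 0.0224), and its call ended with either day 21 library or day 60 replicate 2 left out (adjusted p = 0.0516 to 0.056).

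Several collagen genes, the fibres and sheets of the matrix, were higher late. Of 26 tested, 9 were called higher and 0 lower, and the median was 2.14. Col8a2, a short-chain network collagen, measured 3.5, 5.77, 4.11 and 13.9 CPM early and 167, 105, 141 and 113 CPM late (4.26 ± 0.49, adjusted p = 0.0032), below its day 7 level of 424 and 263 CPM. Col14a1, which sits on the surface of collagen fibrils, measured 1.22, 4.68, 5.69 and 20.1 CPM early and 127, 212, 92.5 and 152 CPM late (4.2 ± 0.75, adjusted p = 0.0113). Col4a4, a chain of specialised basement membranes, measured 0.278, 0.0743, 0.885 and 0.0365 CPM early and 5.66, 9.52, 7.56 and 10.1 CPM late (4.90 ± 0.96, adjusted p = 0.016). The phases did not overlap in any of the 3. The fibril-forming Col1a1 (1.84 ± 1.26, adjusted p = 0.386), Col1a2 (2.45 ± 1.06, adjusted p = 0.171) and Col3a1 (0.93 ± 1.08, adjusted p = 0.627) did not pass, although Col1a2 did without day 3 replicate 2 (adjusted p = 0.0248) and as the mean of days (0.0133). With day 3 omitted all 3 were higher late, Col1a1 by 4.97 (adjusted p = 0.0461), Col1a2 by 5.28 (0.00706) and Col3a1 by 3.78 (0.0476). The count of collagens called higher was 4 to 5 with day 1 replicate 2, day 3 replicate 1, either day 21 library or day 60 replicate 2 left out and 15 with day 3 replicate 2 left out. Without day 1 it was 3, and without day 3 it was 18.

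Other matrix genes went both ways, with 9 called higher and 1 lower of 29 (median 0.32). Prelp, a leucine-rich proteoglycan that anchors basement membranes, measured 23.8, 33.5, 34.5 and 24 CPM early and 394, 211, 209.7 and 206 CPM late (3.14 ± 0.33, adjusted p = 0.00264). Fmod, a related protein that shapes collagen fibrils, measured 12.4, 11.1, 7.34 and 12.8 CPM early and 78.8, 42.8, 60.3 and 57.1 CPM late (2.45 ± 0.30, adjusted p = 0.00369). Tenascin C, encoded by Tnc and deposited at wounds, was the 1 member called lower, at 401, 310.5, 75.2 and 72.6 CPM early and 6.94, 6.24, 5.55 and 12.3 CPM late (-4.78 ± 0.66, adjusted p = 0.00505). Sham held 0.418 and 1.58 CPM of Tnc and day 7 61.5 and 78.7 CPM, so the late libraries lay between sham and day 7. The phosphoprotein gene Spp1 did not pass (-2.05 ± 0.63, adjusted p = 0.0724), with 3349.6, 2161, 12058 and 16449.8 CPM early, 2027, 1983, 2333 and 1891 CPM late and 29076 and 28425 CPM at day 7. It passed as lower late with day 1 omitted (adjusted p = 0.00396) or day 1 replicate 2 alone omitted (0.0399), by DESeq2 (0.00253) and as the mean of days (0.00939). Leaving out a library moved the count called higher to 2 to 5 with either day 1 library, day 3 replicate 1 or any late library left out, and that called lower to 2 with either day 1 library or day 3 replicate 1 left out. The calls were 6 higher and 3 lower (median 0.09) without day 1 and 11 higher and 4 lower (median 1.04) without day 3.

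Some markers of fibroblasts were higher late. Their 17 genes summed to 0.0134 and 0.0115% of counts in sham, 0.258, 0.30, 0.749 and 2.46% early, 8.22 and 19.9% at day 7 and 3.03, 4.7, 2.0 and 2.57% late, and 7 were called higher and 0 lower (median 1.82). Dcn, the proteoglycan decorin, measured 931, 745, 1511 and 3437 CPM early and 5920.2, 8993, 7199 and 9309 CPM late (2.25 ± 0.54, adjusted p = 0.0327), and its call ended with either day 1 library, day 3 replicate 1 or any late library left out (adjusted p = 0.0613 to 0.0865). Pdgfra, a growth factor receptor of fibroblasts and oligodendrocyte precursors, was called (2.16 ± 0.47, adjusted p = 0.0236), and its call ended with day 3 replicate 1, either day 21 library or day 60 replicate 2 left out (adjusted p = 0.0513 to 0.0719). The count of fibroblast markers called was 1 to 4 with either day 1 library, day 3 replicate 1 or any late library left out. Of the 7, Dcn, Fmod and Lum are also among the 9 matrix genes called higher, so these 3 are counted in both lists, and Col1a1, Col1a2 and Col3a1 are in both this list and the collagens. Omitting day 1 gave 2 higher and 0 lower (median 1.20), and omitting day 3 gave 14 higher and 0 lower (median 2.70). In sorted bulk RNA, more cells of a type and more RNA per cell cannot be told apart, and the part of fibroblast transcripts in the matrix results was not tested.

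Enzymes that cut matrix and their inhibitors went both ways. Of 27 tested, 5 were called higher, 4 of them matrix metalloproteinases and the other Adam12, and 3 lower. Plau, the urokinase-type activator, measured 13.5, 8.02, 4.36 and 5.35 CPM early and 0.616, 0.519, 1.15 and 1.26 CPM late (-3.13 ± 0.56, adjusted p = 0.0114). Plaur, its receptor, measured 1236, 393, 180.0 and 93.5 CPM early and 36.2, 42.7, 49.2 and 41.9 CPM late (-3.49 ± 0.72, adjusted p = 0.0205), and its call ended with any late library left out (adjusted p = 0.056 to 0.0724). Timp1, an inhibitor of metalloproteinases, did not pass (-1.35 ± 0.43, adjusted p = 0.0817), with 356, 557, 181 and 384 CPM early and 146, 245, 104 and 86.6 CPM late, but did with day 3 omitted (adjusted p = 0.0424) and by DESeq2 (0.016). The count of proteases and inhibitors called higher was 2 to 3 with day 3 replicate 1 or any late library left out and 8 with day 3 replicate 2 left out. Without day 1 the list had 3 higher and 2 lower (median 0.95), and without day 3 it had 10 higher and 6 lower (median 1.14).

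TGF-beta and activin ligands are held inactive by binding proteins outside the cell. In the TGF-beta and BMP list 6 of 29 were called higher and 1 lower (median 0.38). Ltbp2, a microfibril protein of the latent TGF-beta binding family, measured 28.6, 23.6, 16.6 and 38.2 CPM early and 601, 773, 688 and 750.3 CPM late (4.72 ± 0.37, adjusted p = 0.000902). Ltbp3, which holds latent TGF-beta in the matrix, measured 33.7, 55.2, 59.9 and 122 CPM early and 413, 604, 325 and 496 CPM late (2.76 ± 0.43, adjusted p = 0.00754). Fst, the activin-binding protein follistatin, measured 1.33, 0.919, 2.78 and 1.64 CPM early and 37.1, 31.4, 55 and 39.6 CPM late (4.63 ± 0.43, adjusted p = 0.00153). Inhba, the activin A subunit that follistatin binds, went the other way, at 118, 40.6, 13 and 2.56 CPM early and 1.68, 1.55, 2.12 and 0.653 CPM late (-4.88 ± 1.03, adjusted p = 0.0218). The call of Inhba, the 1 member called lower, ended with any late library left out (adjusted p = 0.056 to 0.0714), and with day 3 replicate 2 left out 3 members were called lower. The ligand Tgfb1 did not pass (-0.51 ± 0.36, adjusted p = 0.399). The list had 4 higher and 0 lower (median 0.52) with day 1 omitted and 8 higher and 2 lower (median 0.44) with day 3 omitted.

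In the insulin-like growth factor axis, binding proteins changed in opposite directions. Igfbp3, the main carrier in blood, measured 1737, 802, 292 and 98.7 CPM early and 11.9, 8.3, 7.79 and 7.0 CPM late (-6.39 ± 0.87, adjusted p = 0.0048). Igfbp4 measured 307, 241, 289 and 581 CPM early and 3590.2, 3168, 4964 and 3529 CPM late (3.43 ± 0.42, adjusted p = 0.00369), and Igfbp5 measured 85.8, 73.7, 106 and 82.6 CPM early and 1768, 831, 1163 and 415 CPM late (3.58 ± 0.47, adjusted p = 0.00412). In none of the 3 did a late library enter the early range. At day 7 Igfbp3 stood at 131 and 93.7 CPM and Igfbp4 at 2398 and 1704 CPM, in each case between the day 3 and day 21 values of the same replicate. Over the list 6 of 14 were called higher and 1 lower (median 1.12). The count called higher was 3 with day 60 replicate 1 left out, and that called lower was 2 with day 3 replicate 2 left out. The ligand Igf1 did not pass (2.10 ± 0.91, adjusted p = 0.171), but with day 3 omitted it was higher late by 4.92 (adjusted p = 0.0035), and it passed by DESeq2 (0.042) and as the mean of days (0.00349). Calls in this axis were 3 higher and 1 lower (median 0.86) without day 1 and 6 higher and 2 lower (median 1.48) without day 3.

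Secreted Wnt antagonists were among the Notch and Wnt genes called, 4 higher and 1 lower of 25 (median 0.02). Sfrp4 measured 77.2, 66.5, 68.4 and 375 CPM early and 2423, 2464, 1671 and 1956 CPM late (3.86 ± 0.66, adjusted p = 0.00997), with day 3 replicate 2 well above the other 3 early libraries. Sfrp1 measured 3.67, 6.11, 12.3 and 14.1 CPM early and 48.7, 26.9, 76 and 61.2 CPM late (2.56 ± 0.49, adjusted p = 0.0145). The receptor Fzd1 measured 34.1, 18.4, 18.3 and 18.4 CPM early and 206, 111, 62.6 and 66.1 CPM late (2.32 ± 0.44, adjusted p = 0.0138). The remaining member called higher was the Notch receptor gene Notch2. The Notch effector Hes1 did not pass (-1.42 ± 0.39, adjusted p = 0.0507), but did with the block (adjusted p = 0.0273) and without day 3 replicate 2 (0.0294) or all of day 3 (0.0256), by DESeq2 (0.00794), limma voom (0.0467) and the mean of days (0.0145), with a minimum count of 50 (0.0482) and after thinning (0.0467). The count called lower, 1 gene, was 0 with day 1 replicate 2 or any late library left out and 2 with day 3 replicate 2 left out. Omitting a whole day gave 3 higher and 0 lower (median 0.10) for day 1 and 7 higher and 3 lower (median 0.22) for day 3.

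Astrocytes make most of the cholesterol of the adult brain and export it on lipoproteins. In the lipid transport list 7 of 19 were called higher and 2 lower (median 1.03). Apod, a lipid-binding lipocalin, measured 637, 636, 2176 and 2028 CPM early and 8466, 11915, 8984 and 8426 CPM late (2.79 ± 0.54, adjusted p = 0.0155), and Lrp1, the receptor that takes up apolipoprotein E, measured 84.1, 183, 249.7 and 389.7 CPM early and 1723, 2248, 1706 and 1232 CPM late (2.93 ± 0.49, adjusted p = 0.00954). Abca1, which exports cholesterol to apolipoproteins, was called (2.91 ± 0.62, adjusted p = 0.022), and that call ended with either day 21 library or day 60 replicate 2 left out (adjusted p = 0.0522 to 0.0629). Fabp7, the fatty acid-binding protein of immature astrocytes, was lower, at 14.1, 105, 219 and 632 CPM early and 12.6, 15.1, 13.9 and 11 CPM late (-4.21 ± 0.90, adjusted p = 0.0231), and its call ended with any late library left out (adjusted p = 0.0627 to 0.0771). The count called higher was 3 to 4 with either day 21 library or day 60 replicate 2 left out, and that called lower was 1 with any late library left out. For this list, omitting day 1 gave 6 higher and 3 lower (median 1.25) and omitting day 3 gave 11 higher and 2 lower (median 1.60).

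All 22 genes of cholesterol synthesis and uptake had a negative difference, against 7769 of the 14845 genes tested. Of the 22, 9 were called lower, against 3.66% of all genes, and none was called higher (median -1.46). Sqle, the squalene epoxidase that commits carbon to sterols, measured 159, 137, 40.4 and 52.5 CPM early and 16.9, 17.1, 6.18 and 9.63 CPM late (-2.96 ± 0.53, adjusted p = 0.0114). Day 1 was the higher of the early days in both replicates, and sham (39.7 and 50.2 CPM) lay near day 3. The summed level was 0.161, 0.205, 0.0653 and 0.0917% of counts early and 0.0448, 0.0434, 0.0427 and 0.0397% late, with no overlap, and 0.102 and 0.12% in sham. Without day 1 the count called lower was 2 and without day 3 it was 14. It was 2 to 5 with either day 1 library or any late library left out.

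**Figure D4:**
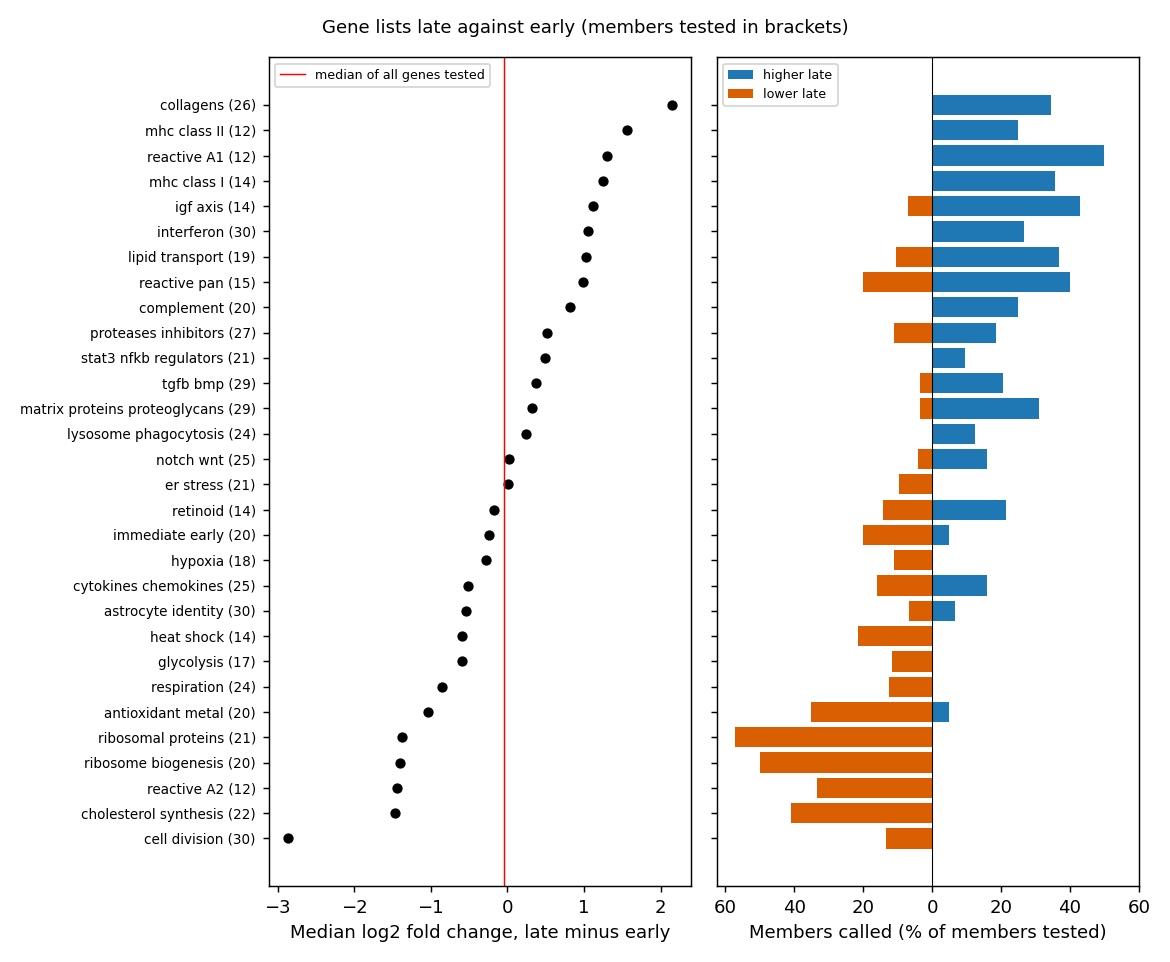
Left, the median log2 fold change of each of 30 gene lists on the x axis, late minus early, with the number of members tested in brackets and a red line at the median of all genes tested (-0.05). Right, the percent of each list called higher (blue) and lower (orange), where 4.76% and 3.66% of all genes were called. Collagens have the highest median and cell division genes the lowest.

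The largest decreases included genes of varied kinds. Crabp1, a retinoic acid carrier, measured 18.9, 25.5, 31.1 and 32.3 CPM early and 0.224, 0.457, 0.115 and 0.16 CPM late (-6.71 ± 0.53, adjusted p = 0.000902), and its day 7 level was 0.269 and 0.0558 CPM. Msln, a mesothelial surface protein, measured 50.2, 24, 28.2 and 19.1 CPM early and 0.616, 0.287, 0 and 0 CPM late (-7.23 ± 1.21, adjusted p = 0.0096). Ctla2a, an inhibitor of cathepsin L, measured 2198, 1239, 709 and 230.2 CPM early and 15.4, 24.5, 34.6 and 36.2 CPM late (-5.30 ± 0.71, adjusted p = 0.00441), and its exons overlap other genes on the same strand. All 3 kept their call in the 8 fits that left out a library, and their late levels lay near or below those of sham. The hormone gene Stc1 measured 739, 262, 16.7 and 4.8 CPM early and 2.18, 0.806, 0.916 and 0.587 CPM late (-7.87 ± 1.54, adjusted p = 0.0162), and its call ended with day 21 replicate 2 or either day 60 library left out (adjusted p = 0.0535 to 0.0581). Serpinb2, the inhibitor PAI-2, was called (-6.44 ± 1.60, adjusted p = 0.0366), and its call ended with either day 1 library or any late library left out (adjusted p = 0.0593 to 0.109). Esm1, a proteoglycan of growing vessel tips, was called (-6.24 ± 1.48, adjusted p = 0.0312), and its call ended with either day 1 library or any late library left out (adjusted p = 0.0523 to 0.088). The AP-1 member Fosl1 measured 20.5, 86, 3.23 and 10.2 CPM early and 0, 0.922, 0 and 0.682 CPM late (-6.01 ± 1.32, adjusted p = 0.0246), and its call ended with day 1 replicate 2 or any late library left out (adjusted p = 0.0536 to 0.0716).

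Among 20 immediate early genes, 4 were called lower and 1 higher (median -0.24). Fos itself did not pass, with 849, 354, 1586 and 530.4 CPM early, 1431, 1169, 882 and 531 CPM late and 84 and 76.3 CPM in sham (0.27 ± 0.50, adjusted p = 0.771), so its level was above sham in all 8 libraries. Leaving out a library moved the count called lower to 0 to 2 with day 1 replicate 2 or any late library left out, and that called higher, which holds Arc alone, to 0 with either day 1 library, day 3 replicate 1 or any late library left out. With whole days omitted the counts were 0 higher and 0 lower (median -0.32) for day 1 and 0 higher and 4 lower (median 0.05) for day 3.

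Reactive astrocyte genes are often sorted into a shared set, a set first described after inflammation (A1) and a set first described after ischaemia (A2). Of 12 A1 genes tested, 6 were called higher and 0 lower (median 1.30), namely C3, Serping1, H2-T23, Iigp1, Gbp2 and Fbln5. With day 3 replicate 2 left out 3 A1 genes were called lower beside the 6 higher, and the block and the mean of days each called 7 higher and 1 lower. The A1 set had 5 higher and 0 lower (median 1.32) without day 1 and 5 higher and 1 lower (median 1.29) without day 3. Of 12 A2 genes, 0 were called higher and 4 lower (median -1.44). Tgm1, a transglutaminase of the A2 set, measured 23.6, 76.6, 16.1 and 43.6 CPM early and 3.02, 3.6, 2.35 and 4.94 CPM late (-3.51 ± 0.52, adjusted p = 0.00661). The count of A2 genes called lower was 1 to 2 with any late library left out. Whether the A1 and A2 sets differ from each other was not tested. Complement and interferon lists share C3, Serping1, Iigp1 and Gbp2 with the A1 set, so these are not separate observations.

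In the shared set of 15, 6 were called higher and 3 lower (median 0.99). The 6 include Lcn2, Steap4 and Cp, whose levels are given above. Gfap, the intermediate filament protein that defines reactive astrocytes, did not pass, with 443, 1599, 1468 and 4144 CPM early, 691, 646, 185 and 178 CPM late and 161 and 175 CPM in sham (-2.17 ± 0.71, adjusted p = 0.0868). Both day 60 libraries were near the sham level of Gfap and all 4 early libraries lay above it. Gfap passed as lower late with day 1 omitted (adjusted p = 0.0422) or day 1 replicate 1 alone omitted (0.0474), by DESeq2 (0.00523) and as the mean of days (0.00833). Vim, a second filament protein, measured 1143, 1069, 1269 and 1238 CPM early and 402, 459.6, 665 and 539 CPM late (-1.19 ± 0.30, adjusted p = 0.0383), and its call ended with either day 1 library, day 3 replicate 1 or any late library left out (adjusted p = 0.0518 to 0.122). Serpina3n, a protease inhibitor used as a marker of reactive astrocytes, was lower late, at 66.3, 113, 28.7 and 117 CPM early and 14.6, 18.6, 2.86 and 7.93 CPM late (-2.88 ± 0.61, adjusted p = 0.0218), and its call ended with day 21 replicate 1 or day 60 replicate 2 left out (adjusted p = 0.0604 to 0.0716). The count of the shared set called lower was 0 to 1 with day 1 replicate 2, day 3 replicate 1, either day 21 library or day 60 replicate 2 left out. Omitting day 1 gave 6 higher and 1 lower (median 1.01), and omitting day 3 gave 5 higher and 3 lower (median 0.66). Cd44 (-0.60 ± 0.35, adjusted p = 0.306) and Stat3 (0.09 ± 0.34, adjusted p = 0.894) did not pass.

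The next list holds genes of the response to haem, metals and oxidants. Of its members, 7 of 20 were called lower and 1 higher, the latter being Gpx3 (median -1.03). Hmox1, which breaks down haem, measured 846, 631, 245 and 316 CPM early, 119.9 and 91.2 CPM at day 7 and 68.9, 62.4, 56.2 and 52.9 CPM late (-3.08 ± 0.43, adjusted p = 0.00505), against 4.06 and 3.6 CPM in sham. Every late library was below every early one and above sham. Mt2, a metallothionein that buffers zinc and copper, measured 125, 259, 100.3 and 104 CPM early and 16.2, 25, 17.6 and 13.7 CPM late (-3.02 ± 0.39, adjusted p = 0.00412), and here sham (103 and 257 CPM) was at the early level. The count called lower was 3 to 4 with either day 21 library or day 60 replicate 2 left out.

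Against 3.66% of all genes called lower, the other stress lists had 2 or 3 members called lower each. In the glycolysis list 2 of 17 were called lower and 0 higher (median -0.59). Its count called lower was 0 with any late library left out, 0 without day 1 and 1 without day 3. In the mitochondrial and cytosolic heat shock list 3 of 14 were called lower (median -0.59), among them the mitochondrial chaperonin Hspd1 at 147, 157, 91.9 and 117 CPM early and 40.9, 49.8, 38.9 and 52.8 CPM late (-1.49 ± 0.27, adjusted p = 0.0117). In the endoplasmic reticulum and amino acid stress list 2 of 21 were called lower (median 0.01), among them asparagine synthetase, Asns, at 119.6, 133, 49.5 and 53.2 CPM early and 14.6, 17.6, 14.3 and 11.9 CPM late (-2.60 ± 0.38, adjusted p = 0.00629). In the hypoxia list 2 of 18 were called lower (median -0.28). Of these, Ankrd37 measured 12.3, 6.56, 18.2 and 3.82 CPM early and 1.06, 1.22, 0.916 and 1.44 CPM late (-3.13 ± 0.55, adjusted p = 0.0109). Vegfa, the angiogenic growth factor, was the other (-2.15 ± 0.56, adjusted p = 0.0429), and its call ended with either day 1 library or any late library left out (adjusted p = 0.0744 to 0.113). The counts called lower were 1 with either day 21 library or day 60 replicate 2 left out for heat shock, 1 with either day 1 library or any late library left out and 4 with day 3 replicate 2 left out for the endoplasmic reticulum list, and 1 with either day 1 library or any late library left out and 4 with day 3 replicate 2 left out for hypoxia. With day 1 and day 3 omitted in turn, the hypoxia list had 0 higher and 1 lower (median -0.11) and then 1 higher and 4 lower (median -0.08), and the endoplasmic reticulum list 0 higher and 1 lower (median -0.15) and then 1 higher and 4 lower (median 0.26).

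All 30 genes of cell division had a negative difference and the median was -2.87, yet only 4 were called lower, against 3.66% of all genes. The early days differ widely in this list. Its summed share was 0.0323, 0.0272, 0.152 and 0.256% of counts early and 0.0255, 0.0237, 0.016 and 0.0222% late, with day 1 close to the late libraries and day 3 above them. Kif23, a motor of the dividing cell's midbody, measured 4.61, 5.28, 28.7 and 44.7 CPM early and 1.34, 1.33, 1.2 and 3.77 CPM late (-3.42 ± 0.80, adjusted p = 0.0298), and its call ended with day 3 replicate 1, either day 21 library or day 60 replicate 1 left out (adjusted p = 0.0574 to 0.0954). Mki67, the proliferation marker, did not pass (-2.26 ± 1.03, adjusted p = 0.191), with 0.611, 1.87, 35.7 and 38.5 CPM early and 4.42, 3.41, 4.87 and 3.34 CPM late, but did with day 1 omitted (adjusted p = 0.00252). Without day 1 the list had 28 genes called lower and a median of -3.82. Without day 3 it had 0 and a median of 0.39. The count was 0 to 1 with day 3 replicate 1 or any late library left out and 12 to 15 with either day 1 library left out.

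Many genes that make or form ribosomes were lower late. Over all genes tested 3.66% were called lower, and 7769 of 14845 had a negative difference. All 20 genes that build ribosomes in the nucleolus had a negative difference, and 10 were called (median -1.40). Their summed share was 0.288, 0.215, 0.133 and 0.132% early and 0.0711, 0.0705, 0.0785 and 0.065% late, with no overlap, against 0.0565 and 0.0644% in sham. Gnl3, the nucleolar GTPase nucleostemin, measured 92.3, 50.7, 46.2 and 39.3 CPM early and 15.1, 19.6, 10.7 and 18.8 CPM late (-1.83 ± 0.34, adjusted p = 0.0138), and its call ended with day 21 replicate 1 left out (adjusted p = 0.052). All 21 ribosomal protein genes also had a negative difference, and 12 were called (median -1.38). Rpl13, a protein of the large subunit, measured 14.4, 23.2, 39 and 41.4 CPM early and 3.3, 6.51, 4.29 and 5.15 CPM late (-2.61 ± 0.41, adjusted p = 0.00774), and its sham level was 32.1 and 60.7 CPM. Many ribosomal protein genes have processed copies elsewhere in the genome, so their counts are uncertain where reads could match several genes. The count was 1 to 5 with either day 1 library or any late library left out for ribosome building and 1 to 7 with day 1 replicate 2, either day 3 library or any late library left out for ribosomal proteins. All 24 genes of the respiratory chain had a negative difference as well, with 3 called (median -0.85) and 6 with the block, a count that was 0 with either day 21 library or day 60 replicate 2 left out and 6 with day 1 replicate 1 left out. The ribosome building list had 0 higher and 2 lower (median -0.66) without day 1 and 0 higher and 18 lower (median -1.64) without day 3, the ribosomal proteins 0 higher and 10 lower (median -1.63) and then 0 higher and 3 lower (median -1.20), and the respiratory chain 0 higher and 8 lower (median -1.05) and then 0 higher and 0 lower (median -0.62).

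The label of the cells was checked on 30 astrocyte genes. Their summed share was 1.3 and 1.03% of counts in sham, 0.653, 1.81, 0.422 and 0.709% early, 0.217 and 0.136% at day 7 and 0.481, 0.34, 0.561 and 0.414% late, and all 30 passed the filter on low counts. The 17 fibroblast markers given above took a larger share of counts than these 30 genes in both libraries of days 3, 7, 21 and 60, and a smaller one in sham and at day 1. These shares are not divided by gene length, and whether the fibroblast transcripts came from astrocytes or from other cells was not tested. Of the astrocyte genes 2 were called higher and 2 lower (median -0.54). Kcnj16, a potassium channel subunit, measured 18.5, 33, 23.3 and 22.1 CPM early and 8.46, 4.16, 4.29 and 3.23 CPM late (-2.27 ± 0.38, adjusted p = 0.00982). Aqp4, the water channel of the end-feet, measured 45.7, 134, 47.2 and 61.2 CPM early and 28.5, 16.9, 23.2 and 14.9 CPM late (-1.79 ± 0.40, adjusted p = 0.0264), and its call ended with any late library left out (adjusted p = 0.0557 to 0.0842). The glutamate transporters Slc1a2 (-0.55 ± 0.54, adjusted p = 0.558) and Slc1a3 (-0.53 ± 0.48, adjusted p = 0.525), the connexin Gja1 (-1.14 ± 0.47, adjusted p = 0.155), the nuclear factor Sox9 (0.43 ± 0.42, adjusted p = 0.56) and the calcium-binding S100b (-0.43 ± 0.44, adjusted p = 0.575) did not pass. Aldh1l1, the folate enzyme used as a pan-astrocyte marker, measured 94.5, 581, 77.3 and 332 CPM early and 50.1, 71.1, 51.8 and 78.5 CPM late (-2.11 ± 0.61, adjusted p = 0.0581), and with the block its adjusted p was 0.0293. That p was 0.0259 with day 3 omitted, 0.0382 without day 1 replicate 1 and 0.0361 without day 3 replicate 1, 0.00264 by DESeq2 and 0.0373 as the mean of days. Gja1 passed with day 3 omitted (0.0465). Within replicate 1 the median of the list was 0.14 and within replicate 2 it was -1.41. Omitting day 3 gave 1 higher and 13 lower (median -1.08), omitting day 1 gave 0 higher and 2 lower (median -0.18), and the mean of days called 8 lower. The count of astrocyte genes called higher was 0 to 1 with any of the 8 libraries left out, and the count called lower was 1 with any late library left out and 5 with day 3 replicate 1 left out and 4 with the block.

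Markers of other cell types were present in every library. Endothelial markers summed to 1.12, 0.802, 0.623 and 0.154% of counts early and 0.204, 0.33, 0.215 and 0.334% late. Of 16 tested, 3 were called lower (median -1.29), among them the junction protein Pecam1 at 1101, 502, 436 and 111 CPM early and 106, 107, 61.7 and 97.7 CPM late (-2.53 ± 0.59, adjusted p = 0.0294), a call that ended with any late library left out (adjusted p = 0.0779 to 0.0833). Mcam, a surface protein of pericytes and endothelium, measured 226, 150.0, 153 and 63.3 CPM early and 11.8, 15.8, 3.49 and 13.4 CPM late (-3.73 ± 0.54, adjusted p = 0.00577). Mcam is not in the endothelial list but in that of mural cells. Of 14 mural genes tested, 2 were called higher and 2 lower, Mcam among the latter (median -0.56). Mural markers summed to 0.178, 0.135, 0.159 and 0.0993% of counts early and 0.174, 0.155, 0.127 and 0.135% late. Macrophage markers summed to 0.0548, 0.0842, 0.228 and 0.155% early and 0.0403, 0.0475, 0.0365 and 0.0373% late, with no overlap, and 3 of 16 were called lower (median -1.73). Pf4, a chemokine of platelets and macrophages, measured 5.23, 3.91, 95.3 and 63.2 CPM early and 0.392, 0.43, 0.573 and 0.645 CPM late (-6.34 ± 1.09, adjusted p = 0.0101), highest at day 3. Arg1, the arginase of wound macrophages, measured 10.6, 24.8, 121 and 108 CPM early and 0.056, 0, 0.859 and 0.0145 CPM late (-8.83 ± 1.62, adjusted p = 0.0128), and its call ended with day 21 replicate 1 left out (adjusted p = 0.0519). The count was 0 to 1 with either day 1 library or any late library left out and 10 with day 3 replicate 2 left out for endothelium and 1 with day 21 replicate 1 left out for macrophages. For macrophages, omitting day 1 gave 0 higher and 8 lower (median -2.42) and omitting day 3 gave 3 higher and 2 lower (median 0.07). For endothelium the same fits gave 0 higher and 0 lower (median -0.37) and 0 higher and 9 lower (median -1.58).

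Markers of the choroid plexus stood apart at day 21, with a summed share of 0.014, 0.0092, 0.0324 and 0.0254% early, 0.319, 0.364, 0.0296 and 0.0629% late and 0.0363 and 0.122% in sham. Ttr, the thyroid hormone carrier made by that tissue, measured 21, 2.12, 79.2 and 18.4 CPM early and 1054, 1454, 29.1 and 18.4 CPM late (4.41 ± 1.48, adjusted p = 0.0917; DESeq2 0.0172, mean of days 0.0223), so day 60 lay within the early range and day 21 above it. Enpp2, which makes lysophosphatidic acid, was the 1 marker called (3.16 ± 0.70, adjusted p = 0.0245), at 85.8, 74.4, 159 and 205 CPM early and 1484, 2330.2, 217 and 661 CPM late; the call ended with either day 1 library or either day 21 library left out (adjusted p = 0.0523 to 0.0698). The count of choroid plexus genes was 2 with day 3 omitted, 0 with day 1 omitted, 3 with the block and 0 with either day 1 library or either day 21 library left out and 2 with either day 60 library left out. Neuron markers summed to 0.0887, 0.238, 0.0888 and 0.164% early and 0.154, 0.141, 0.197 and 0.127% late, against 1.21 and 1.26% in sham. None of the 18 neuron, 14 microglia, 10 neutrophil or 14 lymphocyte genes tested was called in edgeR over the 8 libraries. Without day 3 the microglia list had 5 higher and 0 lower (median 1.57) and without day 1 0 higher and 1 lower (median -1.52), the neutrophil list 0 higher and 0 lower (median 0.54) and 0 higher and 2 lower (median -0.44), and the lymphocyte list 2 higher and 0 lower (median 1.53) and 0 higher and 0 lower (median 0.38). The mean of days called 3 microglia genes higher and 1 lower, 2 neutrophil genes lower and 2 lymphocyte genes higher, and 1 lymphocyte gene was called higher without day 3 replicate 1. Of these 56 genes 9 had an unadjusted p under 0.05, and DESeq2 called 4, of which 3 were neutrophil genes and 1 a lymphocyte gene. The part of any of these cell types in the other gene groups was not tested.

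**Figure D5:**
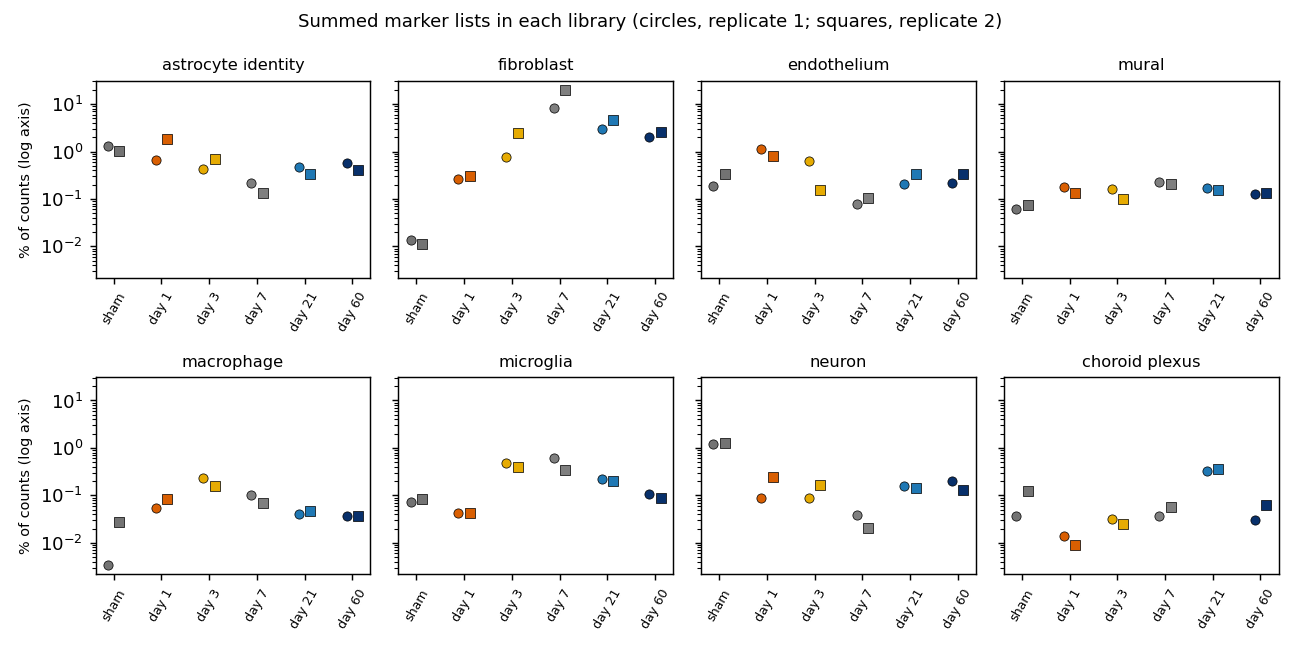
Summed share of counts (y axis, %, log scale) of 8 marker lists in each of the 12 libraries (x axis, group), with circles for replicate 1 and squares for replicate 2. Fibroblast markers peak at day 7 and stay above 2% in the late libraries, endothelial markers are highest at day 1, and choroid plexus markers are highest at day 21.

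Each phase pools 2 days, and more genes were called between the early days than between the late days. Day 3 against day 1, in a fit of all 12 libraries, 483 genes were higher (3.09% of 15635) and 75 lower (0.48%). The block gave 991 higher and 322 lower. Leaving out day 1 replicate 1 gave 207 and 30, leaving out day 1 replicate 2 gave 238 higher, and leaving out day 3 replicate 2 gave 288 and 15. Day 60 against day 21, no gene was called in edgeR, with 847 genes at an unadjusted p under 0.05, 21 called with the block and 115 by DESeq2. Of the genes above, Il11 differed between the early days by -6.75, adjusted p = 0.0228, Pf4 by 4.12, adjusted p = 0.00188, Mki67 by 4.85, adjusted p = 0.00332 and Apod by 1.72, adjusted p = 0.0379. Crabp1 (0.51, adjusted p = 0.738), H2-T23 (0.29, adjusted p = 0.764) and Ltbp2 (0.07, adjusted p = 0.981) did not pass between the early days. For these 3 genes the late libraries stood apart from both early days.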

How the data were processed

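The deposited files hold raw gene counts of the 12 libraries, 1 file per library and 1 table of the series, which were identical in 189288 of 189288 values. Per the submitters' processing notes the counts rest on Bowtie2 2.3.4.2, HTSeq 0.6.1 and mm10; annotation, strand setting and the counting of reads that match several genes are not given in the sources used here. Without a stated strand, reads of overlapping genes cannot be told apart: of the 105 genes described, 3 share exons with another gene on the same strand and 9 on the opposite strand.

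Counts were tested in R 4.3.3 with edgeR 4.0.16 (quasi-likelihood F test, phase as the only term, TMM factors from all 12 libraries, filterByExpr with a minimum count of 10, 6 residual degrees of freedom). DESeq2 1.42.0 and limma 3.58.1 were alternatives. Days within a phase were compared in 1 fit of all libraries. On simulated counts for 14657 genes the test recovered 0 of 66 genes changed by 1 on the log2 scale, 13 of 66 by 2 and 45 of 65 by 3, with 3 false calls. The simulation changed fewer genes than were called in the data, so its recovery need not hold for them. The difference between replicate 2 and replicate 1 correlated between the 4 days at 0.353 to 0.572 over genes, 6 of 6 pairs above 0.1. The main test left this pairing out, so its p-values take no account of it. A second fit took the replicate number as a block. The labels do not say that the replicate number marks a batch.

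Named genes were the 12 largest called differences in each direction with at least 10 CPM in the higher phase, no overlap between phases and an ordinary symbol, up to 4 members of each of 42 lists, and 21 landmark genes. Of the 176 named, 135 were called and 82 lost that call in at least 1 fit that left out a library; those not described are in no sentence. Col1a1, Col1a2, Col3a1 and other members given without a call were added after their values were seen. The groups, lists and landmarks were chosen with earlier results of these data known. The lists hold 803 entries, of which 10 have no row in the count table. Promoter sequences are RefSeq's, first listed start per gene, and 27025 were searched on both strands.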

Additional observations from a re-analysis of the deposited data

Results flagged for a closer look

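Among the levels of the described genes and the summed shares of the marker lists, 233 groups of 4 libraries (early or late) were tested for a library far from the other 3. The measure was the gap to its nearest neighbour over the range (Dixon's test at 95%). Of these groups 14 stood out, all of them gene levels, where chance flags about 1 group in 20. Day 3 replicate 2 was the high library in 6 of the 14, all early: Adamdec1 at 0.119 CPM (next 0), Scn7a at 0.183 CPM (next 0.0279), Epha3 at 7.23 CPM (next 0.994), Cp at 511.8 CPM (next 243), Sfrp4 at 375 CPM (next 77.2) and Col1a1 at 4396 CPM (next 570.3). In the same library fibroblast markers summed to 2.46% of counts, against 0.258% to 0.749% in the other early libraries. Day 1 replicate 2 was high for Mt2 at 259 CPM (next 125) and for Slc1a2 at 786 CPM (next 247), and in it the astrocyte list summed to 1.81% of counts, against 0.422% to 0.709% in the other early libraries. Day 1 replicate 1 was high for Fzd1 at 34.1 CPM (next 18.4). In the late phase day 21 replicate 1 was high for Prelp at 394 CPM (next 211) and Gja1 at 328 CPM (next 152), day 21 replicate 2 for Apod at 11915 CPM (next 8984), day 60 replicate 1 for Arg1 at 0.859 CPM (next 0.056) and day 60 replicate 2 for Kif23 at 3.77 CPM (next 1.34).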

How the results depend on the processing

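Late against early, 1249 genes were called (706 higher, 543 lower). The count stayed within 1.5 times with RLE scaling, limma voom, no filter, a minimum count of 50, thinning to the shallowest library, without day 1 and without day 3, although without day 1 the higher genes numbered 446. It was 2567 with DESeq2 (1240 higher, 1327 lower), 1962 with the replicate block (1077, 885), 2638 as the mean of days in 12 libraries (1364, 1274) and 4534 with both (2249, 2285). Without day 21 it was 61 (56, 5) and without day 60 it was 35 (33, 2), with 2 late libraries left. Replicate 1 alone gave 428 (300, 128), and replicate 2 alone gave 0 in edgeR with 3451 genes at an unadjusted p under 0.05. Leaving out 1 library gave 414 to 1496 calls (310 to 811 higher, 104 to 685 lower). limma voom ended 13 of the 79 calls of described genes.

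Day 3 against day 1, the count was 558 (483 higher, 75 lower), 1313 with the block (991, 322), 1426 with DESeq2 (1096, 330) and 237 to 518 with 1 library left out (207 to 407 higher, 15 to 111 lower). Day 60 against day 21, the block gave 21 (4, 17) and DESeq2 115 (13, 102). Of the 105 genes described, the replicate block changed the calls of Aldh1l1, C5ar1, C4b and Hes1, given beside them, and no other call.

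Some differences that did not pass changed sign; the cause was not tested. Without day 1 these were Slc1a2 at 0.20, Slc1a3 at 0.48, Ccl2 at 0.56 and Fos at -0.077. Without day 3 they were Sox9 at -0.024, Mki67 at 1.66, Stat3 at -0.27, C3ar1 at 0.92 and C1qa at 2.47 (adjusted p = 0.0418). Without day 21 they were Fos at -0.23, Stat3 at -0.084, Col3a1 at -0.29 and Ttr at -0.34. With single libraries left out Slc1a2 ranged from -0.99 to 0.14, Slc1a3 from -0.77 to 0.19, Stat3 from -0.049 to 0.26 and C1qa from -1.12 to 0.48. C1qa was at 0.24 by limma voom, 0.20 as the mean of days and 0.21 with the block added to it. Within replicate 1 Slc1a2 was at 0.65, Slc1a3 at 0.15, S100b at 0.056, Fos at -0.075 and Stat3 at -0.18, and within replicate 2 Sox9 was at -0.18.

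With 4 libraries a phase, changes of 1 on the log2 scale were not recovered in simulated data, in which fewer genes were changed than were called here. In the data themselves the smallest called difference was 0.81. A gene that did not pass is not shown to be equal.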
